A study of Drosophila melanogaster with 6 samples.

Results

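The 6 libraries of this series of Drosophila larval brains were split by the level of phtm, a gene of steroid hormone synthesis that marks the ring gland. The CPM of a gene is its deposited raw count scaled by the total of the library, and for phtm it was under 10 in 2 libraries and over 100 in the other 4. The 2 libraries under 10 CPM, ctrl 4 and CIN 5, are called the libraries without ring gland, and CIN 4, ctrl 5, ctrl 6 and CIN 6 the libraries with ring gland. The labels do not give this split. It was read from the counts themselves, so the levels of phtm, and every difference between the sides, are given as a description and support nothing further.

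Each library was made from a pool of 3 brains of female larvae in late L3, raised at 29 °C for 96 h from egg laying. All larvae carried the worniu-gal4 driver, which is active in neuroblasts, the neural stem cells. In ctrl it drove UAS-gfp-i, an RNAi transgene against a gene that flies do not have, and in CIN it drove UAS-bub3-i, an RNAi transgene against Bub3 of the spindle assembly checkpoint. The labels number the libraries of both genotypes 4, 5 and 6 by batch, and the replicates came from different days. The split crosses genotype, with 1 ctrl and 1 CIN library without ring gland and 2 ctrl and 2 CIN libraries with it. In batch 4 the CIN library is the one with ring gland, in batch 5 the ctrl library, and batch 6 holds libraries with ring gland only.

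The ring gland is a small endocrine organ that sits on the larval brain. It joins 3 glands in one body. Its prothoracic gland takes up cholesterol and turns it into ecdysone, the steroid that drives moulting and metamorphosis, by enzymes encoded by the Halloween genes. Its corpus allatum makes juvenile hormone, and its corpora cardiaca secrete adipokinetic hormone. Neurons of the brain, among them those that make Ptth and the insulin-like peptides, send axons to it. In bulk RNA, fewer cells of a type and less RNA per cell cannot be told apart.

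Library totals over the 14150 genes of the table ran from 24668180 to 26292208 counts, and 10074 genes were tested. Across genes, which do not count as replicates of each other, Pearson's r of log2 CPM was 0.951 to 0.978 for library pairs of the same side and 0.937 to 0.971 for pairs of different sides. The levels of Bub3 were 149.8, 146 and 115 CPM for ctrl 4, ctrl 6 and ctrl 5, against 98.8, 94.9 and 78.4 CPM for CIN 5, CIN 6 and CIN 4. Every CIN library was thus below every ctrl library.

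The genes phtm, spok and sad were nearly absent from both libraries without ring gland and abundant in the other 4. The first of them, phtm (X:18685766-18688433 in dm6), encodes a cytochrome P450 of ecdysone synthesis. It had 3 counts in ctrl 4, or 0.121 CPM, and 43 counts in CIN 5, or 1.74 CPM, while CIN 6 had 504 CPM, ctrl 6 had 512, ctrl 5 had 1142 and CIN 4 had 1497. The highest library without ring gland and the lowest with it thus lay at 1.74 and 504 CPM, far from both limits of the split. Among the 4 libraries with ring gland the level still spanned 2.97-fold, and that span was used to describe which other genes kept a fixed ratio to phtm.

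The gene spok (3R:3322810-3354486), a P450 of the early steps of the pathway, had 0.0405 and 0.973 CPM in ctrl 4 and CIN 5, and 285, 288, 532 and 568 CPM in CIN 6, ctrl 6, ctrl 5 and CIN 4. The gene sad (3R:11877235-11879754), a P450 of a late step, measured 0.972 and 2.23 CPM without ring gland and 292, 342, 577 and 1228 CPM in the same order with it. Both took the order of phtm over the 4 libraries, with CIN 4 highest and CIN 6 lowest. As a ratio to phtm in the same library, spok ran from 38.0% in CIN 4 to 56.6% in CIN 6, while sad ran from 50.6% in ctrl 5 to 82.1% in CIN 4. Exons of sad overlap the tested gene CG6962, with which it may share reads.

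Further enzymes of the pathway followed at lower levels. The P450 gene dib (3L:4062292-4064551) measured 0.81 and 1.18 CPM in ctrl 4 and CIN 5 and 26.2, 28.5, 51.7 and 116 CPM in CIN 6, ctrl 6, ctrl 5 and CIN 4. The short-chain dehydrogenase gene sro (3R:29794597-29795805) measured 1.66 and 1.38 CPM without ring gland and 43.1, 42.2, 86.3 and 62.7 CPM with it. It was highest in ctrl 5 and not in CIN 4, and as a ratio to phtm it was lowest in CIN 4, at 4.19% against 7.56% to 8.56% in the other 3. Per kilobase of exon, the mean level over the 4 libraries was 415 CPM for phtm, 344 for sad, 237 for spok, 50.8 for sro and 28.1 for dib. Exons of dib overlap the tested gene wit, and those of sro overlap Rnb.

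Cyp6t3, a P450 gene also assigned to ecdysone synthesis, did not take this pattern. It measured 3.81 and 8.51 CPM without ring gland and 1.71, 7.00, 5.02 and 4.68 CPM in CIN 6, ctrl 6, ctrl 5 and CIN 4, so the sides overlapped. In the list of 7 prothoracic gland steroid enzymes, nvd was not found under its identifier, and 6 were tested. Whether the table holds nvd under another identifier could not be settled here. All 4 libraries with ring gland lay above both without it for 5 of the 6, against 425 of the 10074 tested genes (4.22%). The median log2 difference of the 6 was 7.25, against 0.00 over all tested genes. The rule used this contrast, so nothing is read from either number.

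**Figure D1:**
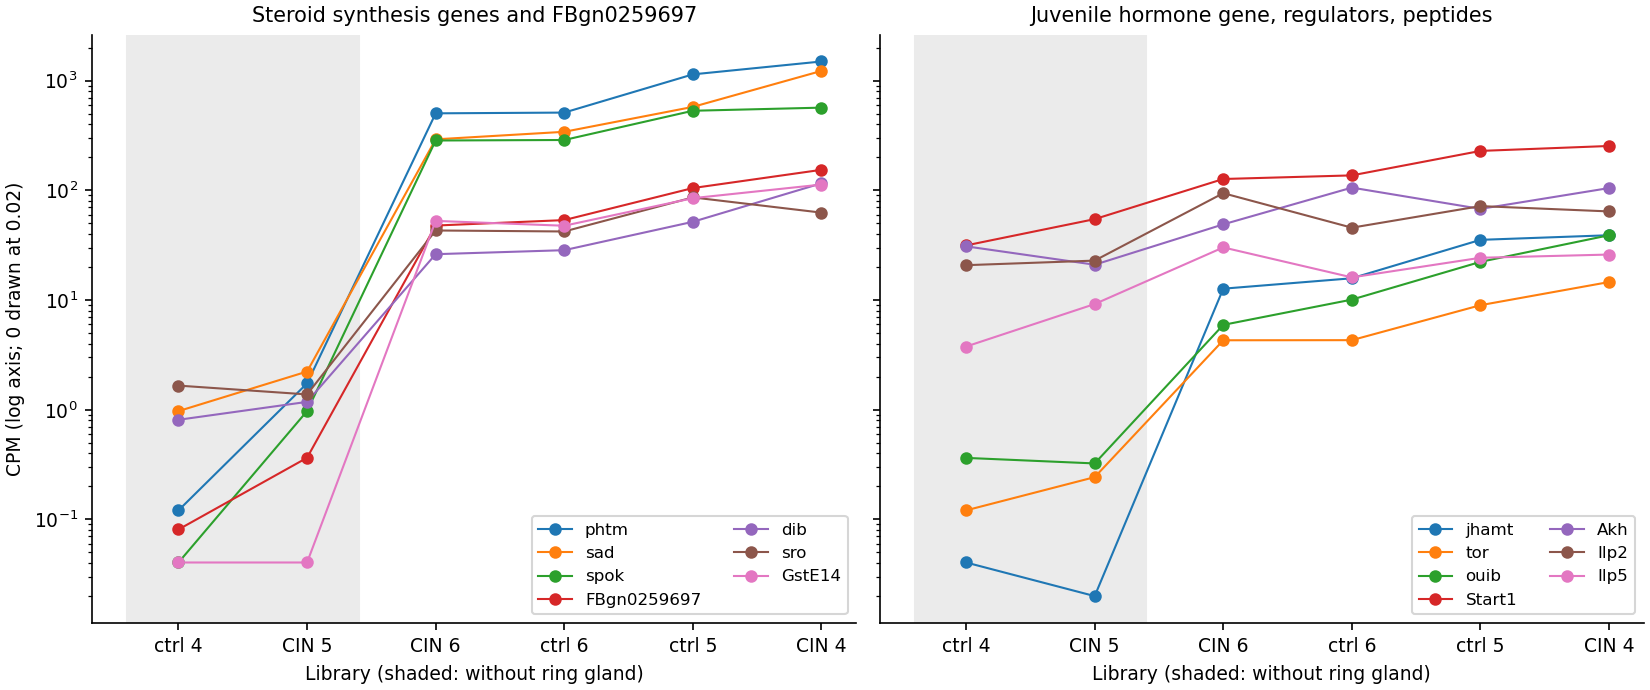
CPM on a log axis by library for 14 named genes, each point 1 library and the lines joining the points of a gene; shading marks the 2 libraries without ring gland, and a count of 0 is drawn at 0.02 CPM. The steroid synthesis genes, jhamt, tor and ouib are near the bottom of the axis in the shaded libraries, while Start1, Akh, Ilp2 and Ilp5 are also present there.

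GstE14 (2R:13239729-13241013), a glutathione S-transferase gene that flies need for ecdysone synthesis, was close to absent without ring gland. It had 1 count in ctrl 4 and 1 in CIN 5, and measured 52.7, 47.6, 84.9 and 113 CPM in CIN 6, ctrl 6, ctrl 5 and CIN 4. The ratio of the sides was 1840-fold, with a 95% exact interval of 509 to 15194 that covers counting error only. As a ratio to phtm it stayed between 7.44% and 10.5%.

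Genes that bring sterol to the enzymes or electrons to the P450s were expressed on both sides. Start1, a sterol transfer protein gene, measured 31.5 and 54.7 CPM in ctrl 4 and CIN 5 and 127, 137, 229 and 254 CPM in CIN 6, ctrl 6, ctrl 5 and CIN 4, a 4.33-fold difference of the means. Npc1a, which moves cholesterol out of lysosomes, measured 121 and 162 CPM without ring gland and 209, 248, 375 and 423 CPM with it, a 2.22-fold difference. Both kept the order of phtm over the 4 libraries, and neither was near 0 without the gland. Fdx2, a ferredoxin gene, was the last of the 3 genes in this list of 7 whose sides did not overlap, at 17.0 and 12.2 CPM against 19.9 to 37.5 CPM. All 3 were above, as were 4.22% of all tested genes. Npc2a, Fdx1, dare and Atet overlapped, with folds of 0.963 to 1.35, and the median log2 difference of the list was 0.49. Start1 overlaps SIFa, a neuropeptide gene described below.

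Of 11 regulators of the prothoracic gland, tor and ouib were nearly absent without ring gland. Torso, the product of tor (2R:7705183-7709184), is the receptor of Ptth. It had 3 counts in ctrl 4 and 6 in CIN 5, and measured 4.3, 4.31, 8.98 and 14.6 CPM in CIN 6, ctrl 6, ctrl 5 and CIN 4. The zinc finger gene ouib (3R:8725479-8726730), an activator of spok, had 9 and 8 counts without ring gland and measured 5.94, 10.1, 22.3 and 39.0 CPM with it. The POU factor gene vvl was above on the side with ring gland too, at 108 to 201 CPM against 85.1 and 107 CPM, where the nearest libraries differ by 1 CPM. The other 8 overlapped, among them the receptor genes Alk, Egfr and InR and the zinc finger gene mld, which measured 95 and 99.8 CPM without ring gland and 60.1 to 98.0 CPM with it. Of the 11, 3 thus lay above and 0 below, against 4.22% and 6.03% of all tested genes, most of which overlapped. The median log2 difference of the 11 was -0.07.

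For the corpus allatum, jhamt stood in the same pattern as the steroid enzymes. It encodes juvenile hormone acid methyltransferase, which acts at the end of juvenile hormone synthesis. At 2L:16365903-16367039, it had 1 count in ctrl 4 and 0 in CIN 5, and measured 12.7, 15.8, 35.4 and 39.0 CPM in CIN 6, ctrl 6, ctrl 5 and CIN 4. The ratio of the sides was 1271-fold, with a 95% exact interval of 228 to 50215 from that 1 count. Genes of the route that makes its precursors are expressed widely, and those given here differed little. Hmgs was 1.51-fold and Fpps 1.29-fold higher in the mean with ring gland, with sides that did not overlap, while Idi, Pmvk and qm overlapped at 0.962- to 1.28-fold. Kr-h1, a transcription factor gene that responds to juvenile hormone, measured 16.7 and 33.8 CPM without ring gland and 11.9 to 20.3 CPM with it.

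For the corpora cardiaca the label of the split holds only in part. Akh (3L:4141467-4142070), which encodes adipokinetic hormone, had 764 counts in ctrl 4 and 519 in CIN 5, or 30.9 and 21.0 CPM. It measured 49.0, 106, 67.8 and 105 CPM in CIN 6, ctrl 6, ctrl 5 and CIN 4. The sides thus did not overlap, with a 3.16-fold difference of the means, but unlike jhamt and the steroid enzymes the gene was well counted without ring gland. Its ratio to phtm ran from 5.93% in ctrl 5 to 20.7% in ctrl 6, so it did not keep the order of phtm. Lst, a peptide gene of the same cells, was low on both sides, at 3.16 and 6.65 CPM against 2.02 to 6.51 CPM. By these markers, ctrl 4 and CIN 5 had few transcripts of the prothoracic gland and corpus allatum, and the word "without" refers to these.

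Several peptide genes of brain neurons that are not gland cells were also higher with ring gland. Ilp2, an insulin-like peptide gene of the median neurosecretory cells, measured 20.8 and 22.9 CPM in ctrl 4 and CIN 5 and 94.3, 45.7, 71.9 and 64.3 CPM in CIN 6, ctrl 6, ctrl 5 and CIN 4. Ilp5 measured 3.77 and 9.20 CPM without ring gland and 30.2, 16.1, 24.3 and 26.0 CPM with it. Both were highest in CIN 6, the library in which phtm was lowest of the 4. Ilp3 had 0.972 and 11.1 CPM in these libraries against 13.3 to 24.8 CPM, and Dh44 had 16.4 and 17.4 CPM against 21.8 to 54.5 CPM. Ptth, Crz, Capa and Lgr3 overlapped between the sides. In all, 4 of the 8 peptide genes and receptors of this list lay above in all 4 libraries, against 4.22% of all tested genes, and its median log2 difference was 0.55. SIFa, ITP and CG14075 were singled out after their values were seen. SIFa, a neuropeptide gene, had 1.74 and 4.01 CPM against 6.88 to 20.5 CPM, and ITP, an ion transport peptide gene, 83.6 and 72.3 CPM against 108 to 119 CPM. CG14075, which is on none of the lists and is not counted here as a peptide gene, had 29.4 and 26.6 CPM against 68.1 to 149 CPM. Over the 4 libraries it took the order of Akh, highest in ctrl 6 and lowest in CIN 6, and not that of Ilp2 or Ilp5.

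Among genes that act on ecdysone outside the gland, shd, the P450 gene that makes the active hormone in target tissues, lay between 1.56 and 3.47 CPM in all 6 libraries, with a fold of 1.01. Cyp18a1, which inactivates the hormone, was low but above with ring gland, at 1.17 and 0.811 CPM against 1.66 to 4.87 CPM. Oatp74D, the ecdysone importer gene, had 326 and 78.5 CPM in ctrl 4 and CIN 5 against 244 to 1074 CPM, so the sides overlapped. Of 14 measured genes of the ecdysone response, ImpL2, a secreted insulin-binding protein gene, was above, at 171 to 199 CPM against 62.1 and 138 CPM, and Hr3 was below in all 4 libraries with ring gland, which is 1 of 14 in each direction against 4.22% and 6.03% of all tested genes. The most abundant, br and Eip75B, overlapped. In both of these CIN 5 was the highest of the 6 libraries, at 2060 and 673 CPM, and ctrl 4 the lowest, at 1057 and 333 CPM.

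To describe the pattern across all genes, those with at least 50 counts in each of the 4 libraries with ring gland were taken, and 31 of 8121 (0.382%) had a mean CPM at least 5-fold higher on that side. They lie on all large chromosome arms, with 5 on 2L, 9 on 2R, 5 on 3L, 7 on 3R and 3 on X, and 29 are annotated as protein coding. The limit fell between CG9119, at 5.30-fold, and SIFa, at 4.97-fold. The sides did not overlap in 27 of the 31, against 425 of the 10074 tested genes (4.22%) that lay above. All 31 had the same sign in batches 4 and 5. Summed, the 31 genes took 0.00847% of the counts in ctrl 4 and 0.0134% in CIN 5, against 0.188% in CIN 6, 0.200% in ctrl 6, 0.485% in ctrl 5 and 0.638% in CIN 4. The set was chosen by this contrast, which favours sides that do not overlap and equal signs, so these counts describe it only.

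**Figure D2:**
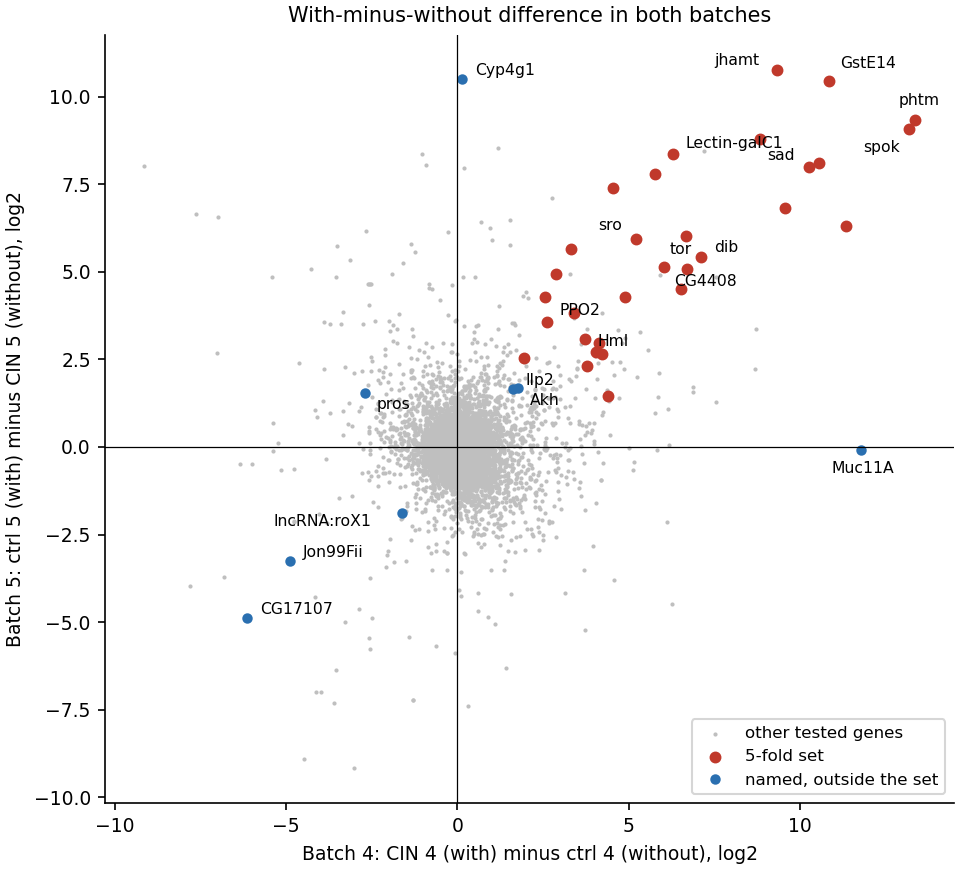
Difference in log2 CPM between the library with and the library without ring gland, in batch 4 (horizontal, CIN 4 minus ctrl 4) and batch 5 (vertical, ctrl 5 minus CIN 5), for each tested gene, with 0.5 counts added; red points are the 31 genes at least 5-fold higher and blue points other named genes. The red points lie in the upper right in both batches, pros lies at -2.71 and 1.55, and Muc11A and Cyp4g1 lie near an axis, far out in 1 batch only.

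In the batches, genotype and side are swapped, which sets gland genes apart from genes that differ by genotype. On the log2 scale phtm differed by 13.37 in batch 4 and 9.34 in batch 5, spok by 13.19 and 9.06, and jhamt by 9.33 and 10.77. In batch 6, where both libraries have ring gland, CIN minus ctrl was -0.02 for phtm, -0.01 for spok and -0.31 for jhamt. In contrast pros, a homeodomain factor gene of neuroblast daughter cells that differs by genotype in this series, had -2.71 in batch 4 and 1.55 in batch 5, as with minus without ring gland. Muc11A, a mucin gene, had 11.78 and -0.09, and Cyp4g1, an oenocyte P450 gene, 0.15 and 10.50, so that each was high in 1 library.

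The likeness to phtm was measured as the coefficient of variation (CV) of the ratio of a gene's CPM to that of phtm over the 4 libraries with ring gland. A gene in fixed proportion to phtm has a CV of 0, and one with a constant level over these 4 would have 50.8%. The 10 genes of the 31 with the lowest CV after phtm were FBgn0259697, tor, jhamt, GstE14, Ldsdh1, spok, CG13101, CG43886, sad and CG43156, with CVs from 6.1% to 22.5%. With only 4 libraries, neighbours in this order are close. In all, 13 of the 31 were under 25%, a limit set after the values were seen, 10 lay between it and 50.8%, and 8 above. Over all 8121 genes 70 were under 25%, and 57 of these were outside the 5-fold set. The 13 and the 70 include phtm itself, whose CV is 0 by definition.

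The lowest CV, 6.1%, belonged to FBgn0259697, an identifier that the annotation used here does not hold. Which gene it names, and whether that is a gene listed as not found, could not be settled. It had 2 counts in ctrl 4 and 9 in CIN 5, and measured 47.8, 53.6, 105 and 154 CPM in CIN 6, ctrl 6, ctrl 5 and CIN 4, which is 9.21% to 10.5% of phtm. Next came tor with 9.39% and jhamt with 10.8%, described above. Ldsdh1, a dehydrogenase gene whose product is found on lipid droplets, had 10 and 1 counts without ring gland and measured 7.71 to 23.0 CPM with it. The uncharacterised genes CG43156 and CG43886 are short, with 330 and 347 bp of exon. CG43156 had 1 and 5 counts without ring gland and 9.30, 14.7, 25.4 and 45.6 CPM in CIN 6, ctrl 6, ctrl 5 and CIN 4. CG43886 had no count in either library without ring gland and 2.51, 3.84, 8.94 and 9.23 CPM in the others. It was at least 101-fold higher, taking 3 counts over the 2 libraries as the floor. CG13101 was less sharp, at 1.05 and 1.74 CPM against 4.51 to 14.8 CPM.

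**Figure D3:**
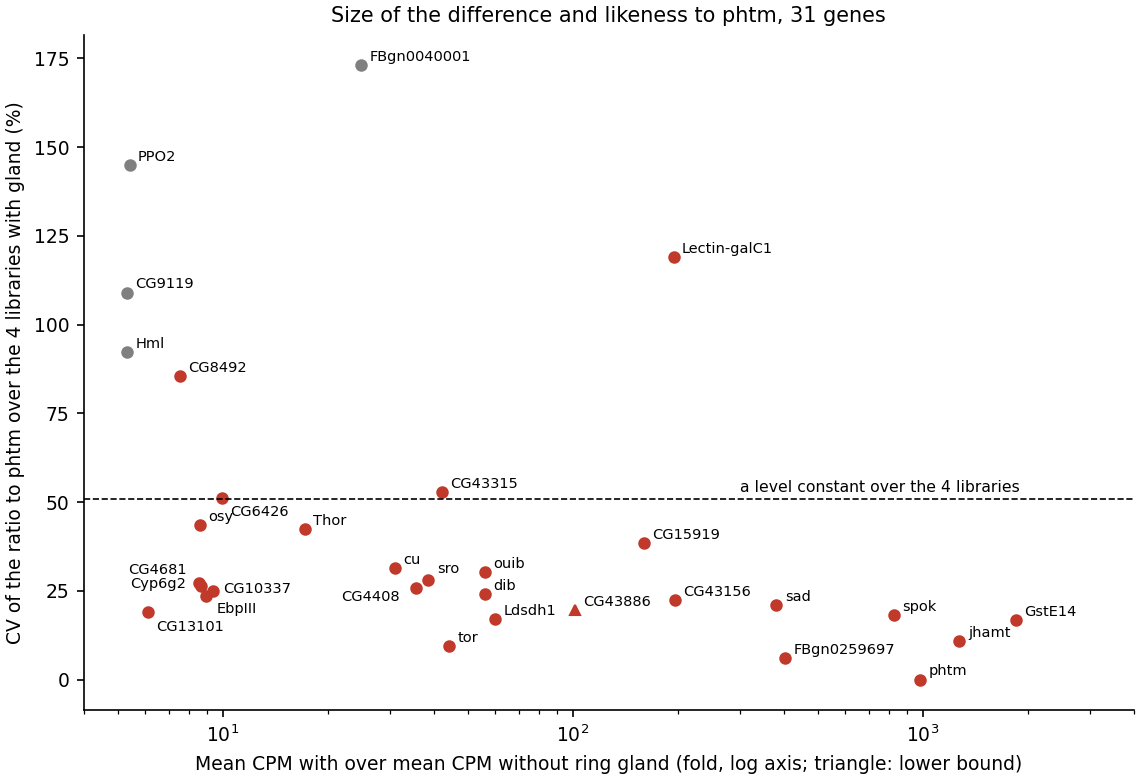
The 31 genes at least 5-fold higher with ring gland, by the fold difference of mean CPM (horizontal, log axis) and the CV of their ratio to phtm over the 4 libraries with ring gland (vertical, in percent); red marks genes whose sides do not overlap, grey those that overlap, the triangle a lower bound and the dashed line the 50.8% of a constant level. The genes over 100-fold, other than Lectin-galC1 at 119%, lie below the dashed line.

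Some abundant genes of the set were close to phtm in order but steeper. CG4408 measured 11.4 and 8.47 CPM without ring gland and 183, 198, 296 and 743 CPM in CIN 6, ctrl 6, ctrl 5 and CIN 4. The gene cu, which encodes a protein related to nocturnin, measured 8.14 and 14.1 CPM without and 165, 137, 318 and 750.3 CPM with ring gland. Thor, which encodes the inhibitor of translation initiation 4E-BP, measured 9.96 and 4.66 CPM against 45.9, 69.5, 90.4 and 294 CPM. In each of these 3 genes CIN 4 stood more than 2-fold above the next library. Their ratios to phtm had CVs of 25.8%, 31.4% and 42.3%. Cyp6g2, a P450 gene, measured 7.41 and 9.40 CPM against 42.6 to 138 CPM, and its exons overlap the tested gene Cyp6g1. The gene Pu, the GTP cyclohydrolase of pteridine synthesis, was singled out after its values were seen, with 6.88 and 11.7 CPM against 22.7 to 62.5 CPM.

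**Figure D4:**
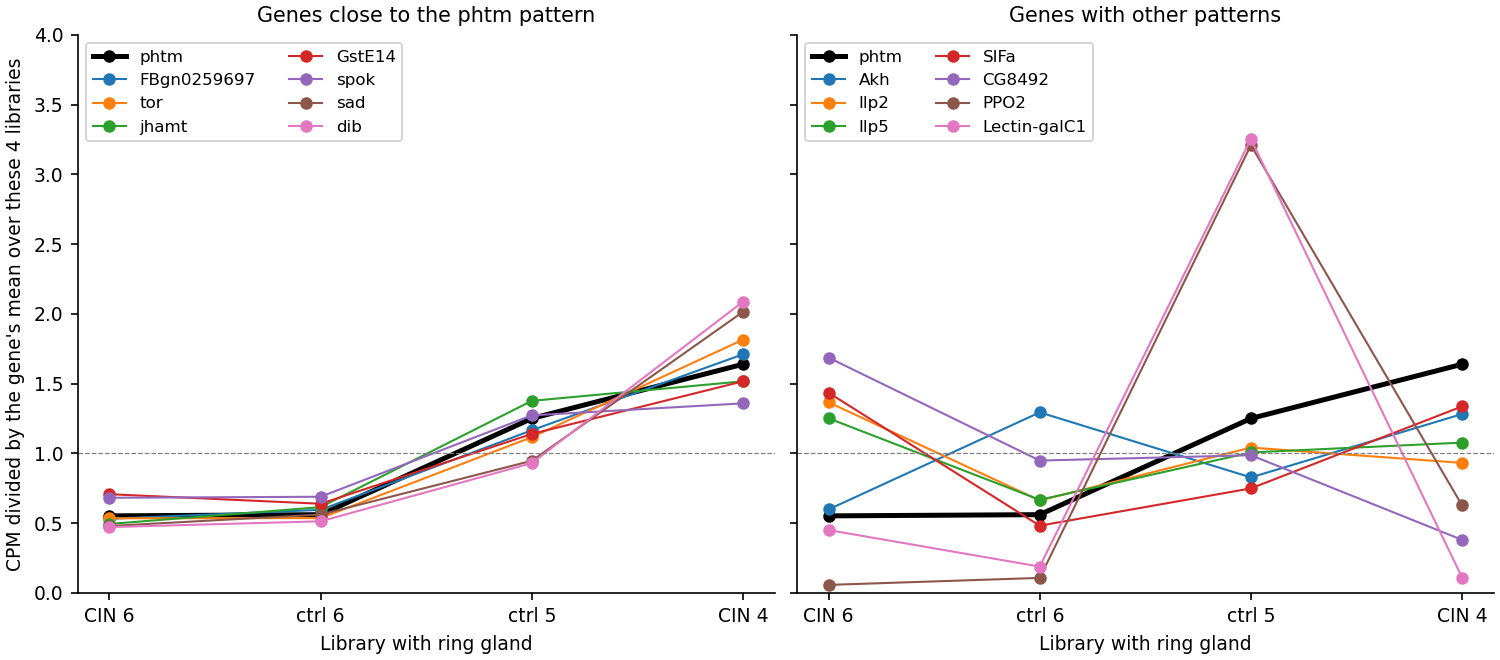
CPM divided by the mean of the gene over the 4 libraries with ring gland, for phtm (black) and 7 genes close to its pattern (left) and 7 genes with other patterns (right); the dashed line at 1 is that mean. The left-hand genes all stand higher in ctrl 5 and CIN 4 than in CIN 6 and ctrl 6, while PPO2 and Lectin-galC1 peak in ctrl 5 and Ilp2, Ilp5, SIFa and CG8492 in CIN 6.

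Not every gene of the 31 followed phtm within the 4 libraries. Both ctrl 5 and CIN 4 stood above both ctrl 6 and CIN 6 in 25 of the 30 genes other than phtm, against 824 of the 8121 genes (10.1%). The 8 genes with a CV above 50.8% included PPO2 and Hml of the hemocyte list. The crystal cell prophenoloxidase gene PPO2 measured 13.2 and 34.9 CPM without ring gland and 7.39, 13.9, 417 and 81.5 CPM in CIN 6, ctrl 6, ctrl 5 and CIN 4, so the sides overlapped. Hml, a clotting protein gene of plasmatocytes, measured 8.66 and 26.7 CPM against 4.61, 31.3, 225 and 115 CPM. Lectin-galC1, a galactose-binding lectin gene on none of the lists, had 1 and 10 counts against 19.5, 8.15, 141 and 4.75 CPM, highest in ctrl 5. FBgn0040001, likewise not annotated here, measured 410.2 CPM in ctrl 5 and 0.688 to 11.8 CPM in the other 5 libraries.

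Blood cell markers moved partly with the gland. The 14 hemocyte and lymph gland genes summed to 832 and 569.7 CPM in ctrl 4 and CIN 5, and to 549.9, 661, 2098 and 1892 CPM in CIN 6, ctrl 6, ctrl 5 and CIN 4. They were thus high in the 2 libraries highest in phtm, while ctrl 6 and CIN 6, with ring gland, stood below ctrl 4. Of the 14, 0 had sides that did not overlap, against 4.22% above and 6.03% below among all tested genes. A positive log2 difference was found in 13 of the 14, against 5014 of the 10074 tested genes. The median was 1.57, against 0.00 over all tested genes. The collagen IV genes Col4a1 and vkg kept close to phtm over the 4 libraries, with CVs of 16.1% and 19.9%, but stood at 406 and 284 CPM in ctrl 4. The part of blood cells in the differences between the sides was not tested.

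**Figure D5:**
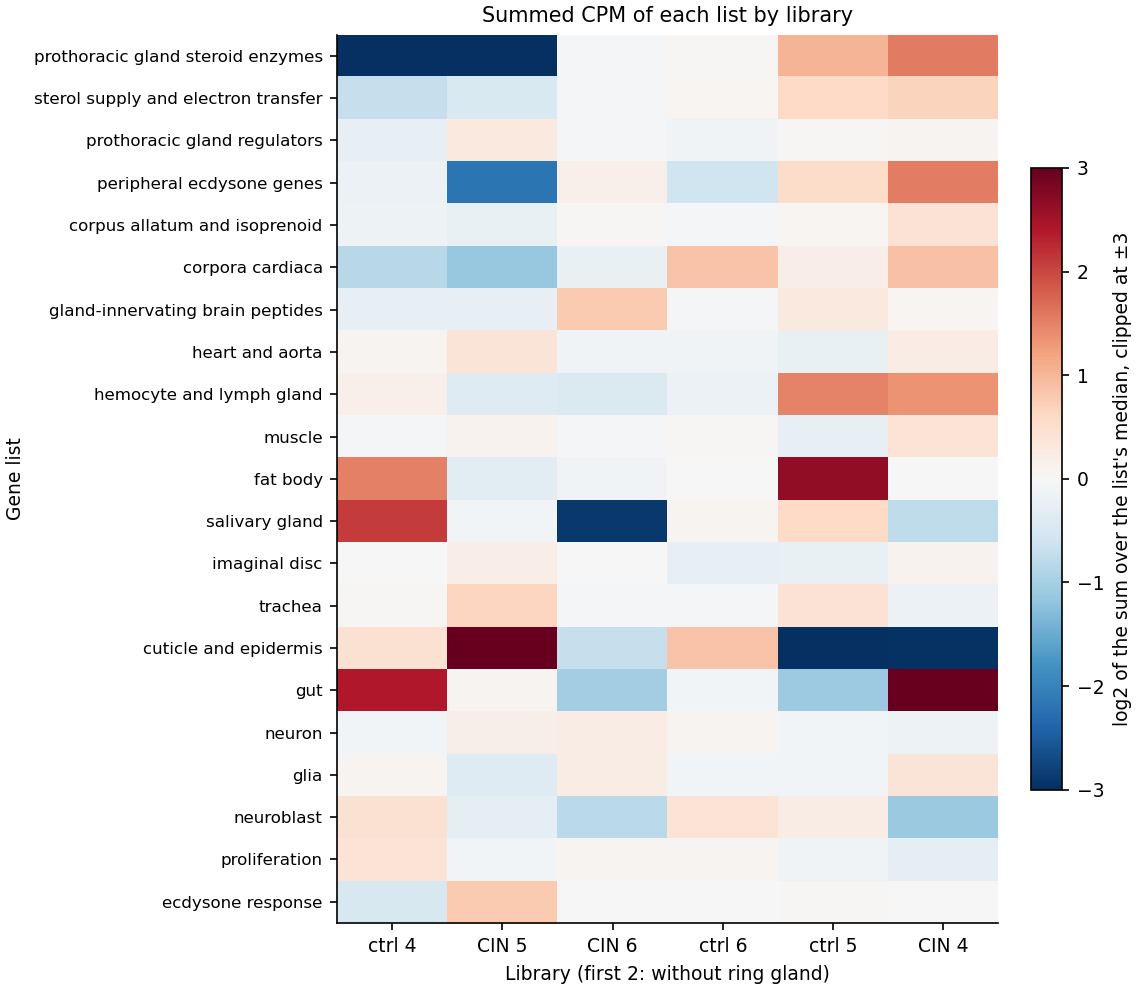
Summed CPM of each gene list in each library, as log2 of the sum over the median of that list across the 6 libraries, with colours ending at -3 and 3; rows are lists, columns libraries, and the first 2 columns are the libraries without ring gland. The row of prothoracic gland steroid enzymes parts the first 2 columns from the others, while the rows of other tissues mostly peak in 1 or 2 libraries.

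Markers of other tissues near the brain varied between single libraries. The lists of cuticle, fat body and salivary gland had the lowest median log2 differences between the sides. All 4 tested cuticle genes and all 7 tested salivary gland genes had a negative log2 difference, against 5060 of the 10074 tested genes. The medians were -3.09 and -1.60. The sides did not overlap for 1 gene of each list, Lcp4 and Sgs1, both below with ring gland, against 6.03% of all tested genes. Cuticle genes summed to 116 and 729 CPM in ctrl 4 and CIN 5 and to 8.06 to 153 CPM with ring gland. Salivary gland genes summed to 89 and 19.8 CPM against 2.82 to 31.8 CPM. The sums of both lists thus overlapped between the sides. The gut list stood at 3781 CPM in CIN 4, of which Muc11A gave 3771 CPM, and at 5.06 to 57 CPM elsewhere. In the fat body list, Cyp4g1 gave 1321 of the 1620 CPM of ctrl 5. This list also stood at 729.7 CPM in ctrl 4, where Cyp4g1 gave 0.769 CPM. Its sums in CIN 4, CIN 5, ctrl 6 and CIN 6 were 208 to 258 CPM. Sums of muscle genes ran from 348 to 552 CPM and those of heart and aorta genes from 83.2 to 126 CPM, with overlapping sides. Of imaginal disc and tracheal genes 1 of 12 and 2 of 7 lay below in all 4 libraries with ring gland and 0 above, against 6.03% and 4.22% of all tested genes. The part of these tissues was not tested.

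Genes of the brain's own cells mostly overlapped between the sides, as did most tested genes. Of 12 neuron markers and 11 glia markers, 0 had sides that did not overlap, with median log2 differences of 0.00 and 0.18. Neuron sums ran from 4144 and 4977 CPM without ring gland to 3959 to 5159 CPM with it. Among 11 neuroblast genes insc, grh and numb were below with ring gland and 0 were above, and among 20 proliferation genes aurA, polo, BubR1 and Top2 were below and 0 above. Over all tested genes, 425 (4.22%) were above and 607 (6.03%) below in all 4 libraries. The median log2 differences of these lists were -0.33 and -0.17. In them 10 of 11 and 19 of 20 genes were negative, against 5060 of the 10074 tested genes. Neuroblast genes summed to 7099 and 4299 CPM in ctrl 4 and CIN 5, against 2381 to 6855 CPM with ring gland. Proliferation genes summed to 3413 and 2424 CPM, against 2115 to 2730 CPM. The sums of both lists thus overlapped between the sides, and CIN 5 lay within the range with ring gland. Top2, the DNA topoisomerase gene, measured 667 and 551 CPM against 416 to 531 CPM.

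Genes lower with ring gland were taken from the calls of DESeq2 and not by fold. It called 13 of the 10074 tested genes lower (0.129%). Of these 13, 10 had sides that did not overlap, against 607 of all tested genes (6.03%) below. The 13 were singled out after their values were seen. The filter grouped libraries by genotype, so genes counted only in the 2 libraries without ring gland could be dropped before the test. Lcp1 and Lcp2, 10.7- and 9.44-fold higher in the mean without ring gland, had overlapping sides and were not among the 13. CG17107 measured 14.9 and 9.45 CPM in ctrl 4 and CIN 5 against 0.195 to 0.910 CPM, and CG7296 47.6 and 37.6 CPM against 1.52 to 7.75 CPM. The cuticle protein gene Cpr78E measured 23.3 and 29.9 CPM against 0.913 to 5.89 CPM. CG3588, CG7294, Cpr67B, Alp1 and zye were 5.06- to 9.71-fold higher in the mean without ring gland. The serine protease genes Jon99Fi and Jon99Fii were near 22 CPM in ctrl 4 but under 1 CPM in CIN 5 as in the libraries with ring gland, so these differences rest on ctrl 4. Jon99Fi and Jon99Fii are related copies, and reads may be shared between them.

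The most abundant of the 13 was lncRNA:roX1 (X:3857230-3862697), which coats the X chromosome in males and whose exons overlap the tested gene ec. It measured 455 and 988 CPM in ctrl 4 and CIN 5 and 222, 280, 267 and 149 CPM in CIN 6, ctrl 6, ctrl 5 and CIN 4, so the sides did not overlap. Its partner lncRNA:roX2, which was not among the tested genes, measured 9.85 CPM in CIN 5 and at most 0.229 CPM elsewhere. The series describes all larvae as female. Wnt6 and Sp1 were the last of the 13, and the sides of Wnt6 overlapped.

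The count of genes that passed a test between the sides depended on the test. With genotype as covariate, the quasi-likelihood test of edgeR, adjusted by Benjamini-Hochberg, called 0 genes higher (0%) and 0 lower (0%), and the lowest adjusted p over all genes was 0.156. At an unadjusted p under 0.05, 152 genes were higher (1.51%) and 168 lower (1.67%). DESeq2 with the same terms called 47 higher (0.467%), 26 of them among the 31 genes of the 5-fold set. With batch as a replicate block, which leaves 1 residual degree of freedom, edgeR called 91 higher (0.903%) and 8 lower (0.0794%), and DESeq2 283 (2.81%) and 66 (0.655%). The split used this contrast, and 2 libraries stand on one side, so nothing is read from these counts.

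For the comparison of CIN with ctrl at equal side, genotype comes from the labels and was not used by the split, while the side in the model was read from the counts. With side in the model, the quasi-likelihood test of edgeR, adjusted by Benjamini-Hochberg, called 0 genes higher in CIN (0%) and 2 lower (0.0199%), against 5 and 5 (0.0496% each) with genotype alone. At an unadjusted p under 0.05, 355 were higher (3.52%) and 314 lower (3.12%), and DESeq2 called 61 higher (0.606%) and 47 lower (0.467%). The 2 genes that fell, Cyp4p2 and CG12607, were also among the 10 called without the side. Cyp4p2, a P450 gene, averaged 32 ± 2.33 CPM over the ctrl libraries and 0.274 ± 0.113 CPM over the CIN libraries (SD, n = 3), and the fitted log2 fold change was -6.88 ± 0.31 (SE; edgeR, adjusted p = 0.00645). CG12607 fell from 14.7 ± 3.24 to 0.0135 ± 0.0234 CPM, the latter from 1 count (edgeR, adjusted p = 0.0458). Without ctrl 5 or without ctrl 6 neither was called, and the call of CG12607 was also lost without CIN 4 or CIN 6. Next in line, pros had a log2 fold change of -2.22 ± 0.18 (SE; edgeR, adjusted p = 0.0582), against -2.19 with genotype alone (adjusted p = 0.0422). With the replicate block, 13 genes were called higher (0.129%) and 14 lower (0.139%).

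Within the 4 libraries with ring gland alone, 2 of each genotype, 4 genes were called higher in CIN (0.0393%) and 3 lower (0.0295%). The 3 lower were Cyp4p2, CG12607 and pros (edgeR, adjusted p = 0.0162, 0.0337 and 0.0397). The 4 higher were the near-identical copies Hsp70Ba, Hsp70Bb, Hsp70Bbb and Hsp70Bc, whose reads the counting could split, so the single copies are uncertain. Hsp70Bb measured 90.5 and 76.7 CPM in CIN 6 and CIN 4 against 7.75 and 5.71 CPM in ctrl 6 and ctrl 5. In the libraries without ring gland it measured 43.6 CPM in CIN 5 and 14.6 CPM in ctrl 4. Bub3 had a log2 fold change of -0.63 ± 0.12 (SE) at equal side, which did not pass edgeR's test (adjusted p = 0.476) and did pass DESeq2 (adjusted p = 0.0021). Its exons overlap the tested gene ppk19.

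Of the 31 genes of the 5-fold set, 0 were among the genes called for genotype at equal side, and so were 0 of the 6 steroid enzymes. With 2 of 10074 genes (0.0199%) called in all, these counts say nothing about the gland genes. For dib the log2 fold change of CIN over ctrl at equal side was 0.73, with an interval of 2 SE from -0.51 to 1.97 (edgeR, adjusted p = 0.827). For sro it was -0.33, from -1.02 to 0.36 (edgeR, adjusted p = 0.852). For jhamt it was -0.09, from -1.38 to 1.20 (edgeR, adjusted p = 0.986). The interval of jhamt reaches past 2-fold in both directions, that of dib past 2-fold higher and that of sro just past 2-fold lower. These intervals thus do not show that the genotypes were alike. The 31 genes and the 6 enzymes include phtm, spok and sad, which mark the split, and no single-gene value of this test is given for them.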

How the data were processed

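The table that the authors deposited holds raw counts, 1 column a library and 1 row a gene. Per the submitters' processing notes, Trim Galore, STAR 2.7.10a, featureCounts and dm6 were used. The kit does not mark strand, per the labels' protocols, and the sources used here do not state the counting's strand setting, annotation release or handling of multi-mapping reads. Overlapping genes and near-identical copies may thus share reads. Symbols were matched by gene identifier for 14074 of 14150 genes, 76 stayed under their identifier, and 110 had no count. Coordinates and exon lengths came from an Ensembl annotation of BDGP6, which dm6 names.

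Levels are CPM over the deposited library total. The fit was edgeR 4.0.16 in R 4.3.3 (filterByExpr, TMM, glmQLFit, glmQLFTest; 10074 genes; Benjamini-Hochberg threshold 0.05) on genotype and side, with all 6 libraries. DESeq2 1.42.0 and limma-voom (limma 3.58.1) were alternatives. The SE is the log2 fold change over the square root of F. Scripts were tested on simulated data. Counts of 24668180 to 26292208 per library limit precision little, and 3 counts over a group served as the floor for genes at 0. Exact 95% intervals cover counting error only. Nothing in the labels ties replicates to more than separate days and pools, so p-values measure the spread between pools.

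The batch number pairs the libraries per the labels. Across genes, the deviations of the ctrl and CIN library of a batch from the means of their genotypes correlated at 0.0382, -0.0623 and 0.175 in batches 4, 5 and 6. The split, the gene lists and the tests were chosen with earlier results of these data known. Named genes were all those of the gland, sterol, ecdysone, juvenile hormone and peptide lists, the 10 closest to phtm, up to 2 from each other list, those called for genotype at equal side, and Bub3. The rule also asked for genes called higher or lower with ring gland, of which edgeR gave 0. The 5-fold set beyond its 10 genes closest to phtm was named in part after its values were seen. Of the listed genes nvd, Cg25C, dp, Cpr47Ea, Hr46, E93, ImpL3 and Eip71CD were not matched by symbol. The result of 1 listed gene is not reported here.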

Additional observations from a re-analysis of the deposited data

Results flagged for a closer look

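In 122 named genes, those chosen after their values were seen included, the highest and lowest of the 4 libraries with ring gland were checked for a wide gap to the other 3, which chance gives in about 1 of 20 groups. The gap was wide in 8 genes. Ctrl 5 was the library apart for Ptth (22.6 CPM), mid (9.77 CPM, the lowest), Cyp4g1 (1321 CPM), FBgn0040001 (410.2 CPM) and Lectin-galC1 (141 CPM). CIN 4 was apart for Muc11A (3771 CPM) and CG6426 (91.7 CPM), and CIN 6 for Dh44 (54.5 CPM). Of these, FBgn0040001, CG6426 and Lectin-galC1 belong to the 31 genes at least 5-fold higher with ring gland. Without the library apart their folds were 1.95, 4.91 and 48.5, so the first 2 would leave that set.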

How the results depend on the processing

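Against 0 genes called higher and 0 lower with ring gland, library totals alone gave 1 higher, no genotype term 2, DESeq2 47 and 13, log2 CPM of phtm as covariate 11 and 1, and the replicate block, batch pairing the libraries, 91 and 8. All 11 belonged to the 5-fold set. DESeq2 with the block, added after seeing the data, gave 283 and 66. Leaving out 1 library gave 0 to 3 higher, with 3 without CIN 4, and 0 to 0 lower. For CIN against ctrl at equal side, with 0 higher and 2 lower, DESeq2 gave 61 and 47, the replicate block 13 and 14, DESeq2 with block 124 and 105, genotype alone 5 and 5, limma-voom 4 lower and the libraries with ring gland only 4 higher. Without 1 library, 0 to 4 were higher, with 4 without ctrl 4 and without CIN 5, and 0 to 3 lower, with 0 without ctrl 5 or ctrl 6. The 5-fold set of 31 became 51 at 3-fold and 20 at 10-fold, limits chosen after seeing the data, and 29 to 50 without 1 library: 50 without ctrl 4, 50 without CIN 5 and 48 without CIN 6. The causes were not tested. Of the 81 tested genes named by the rule, 47 had a positive difference, a number that moved by less than 1.5 times, while 35 of them changed sign in some setting. Of single-gene differences between the sides, 1202 values stayed within 1 SD and 94 moved further. The side without ring gland has 2 libraries, and folds against genes with 0 to 2 counts there are also limited by depth.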
